A study of Sus scrofa with 8 samples.

Results

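The genes described here are 40 genes of mitosis, the step in which a cell parts its copied chromosomes between daughter cells. They were chosen by symbol, and 37 of the 40 were matched to a row among the 31907 genes of the pig count files. CCNA2, MKI67 and AURKA were not matched and are not analysed here. All 37 matched genes passed the filter on low counts, which kept 16549 genes. The study built neobladders in pigs, urinary reservoirs made from ileum, and used the animal's own peritoneum to replace their mucosa. Tissue of Guizhou minipigs aged 8 months was sequenced, with 2 libraries in each of 4 groups: mucosa of the normal bladder (MNB, here native bladder), normal peritoneum (NP), neobladder mucosa of the experimental group (MN-Exp) and neobladder mucosa of the control group (MN-Ctrl). The labels name no genetic change and no drug. They state neither how the control reservoir was lined nor when mucosa was taken after surgery, and do not say if replicates are different animals. The p-values therefore measure the spread between these libraries, which may be technical.

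Entry into mitosis is driven by the kinase CDK1 bound to cyclin B. Condensins and topoisomerase then compact the chromosomes, kinetochores join them to the spindle, and a checkpoint holds back anaphase until every kinetochore is attached. The anaphase-promoting complex then marks cyclin B and securin for destruction, and the spindle midzone places the cleavage furrow. Most of these genes are transcribed late in the cell cycle, under FOXM1, B-MYB and the MuvB complex, so their messenger RNAs are abundant in cycling cells and scarce in resting ones. Normal urothelium is known to renew slowly, whereas intestinal crypts divide throughout life.

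Levels are CPM, each gene's count divided by the scaled total of its library, with edgeR's TMM (trimmed mean) factors as the scaling. CPM is not divided by transcript length, so levels are compared between libraries and not between genes. Library totals ran from 7.94 to 11.88 M counts and TMM-scaled totals from 5.34 to 13.38 M, with control neobladder replicate 2 the lowest on the TMM scale. A count of 3 in a library was worth 0.224 to 0.562 CPM. Replicates correlated across genes at r = 0.92 in control neobladder and at 0.94 to 0.972 in the other groups, where genes are not independent replicates. The 37 mitosis genes together took 6392 and 6385 counts in the native bladder libraries, 2379 and 1197 in experimental neobladder, 14055 and 8452 in control neobladder, and 1975 and 1402 in peritoneum. Members with fewer than 3 counts numbered 2 and 5 in the experimental libraries, 4 and 9 in peritoneum, 0 and 2 in control neobladder and 0 in both native libraries. Counts of 1 to 3 carry a large counting error. The counting intervals given for them cover that error only, and not the spread between libraries.

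Mitosis genes were most abundant in control neobladder, intermediate in native bladder, and lowest in experimental neobladder and peritoneum. Their summed level was 516 and 477 CPM in the native bladder libraries, 202 and 111 CPM in experimental neobladder, 1531 and 1584 CPM in control neobladder, and 201 and 125 CPM in peritoneum. These sums do not overlap between native bladder, control neobladder and the pair of low groups, while those of experimental neobladder and peritoneum do. The mean of the native sums (497 ± 27.8 CPM, SD, n = 2) was 3.18 times that of experimental neobladder (156 ± 64.1 CPM, n = 2). The mean of the control sums (1557 ± 37.6 CPM, n = 2) was 9.96 times the experimental mean and 3.13 times the native one. In bulk tissue, fewer dividing cells and less RNA of these genes per cell cannot be told apart. On library totals without TMM factors the means were 589 CPM in native bladder, 176 CPM in experimental neobladder, 997 CPM in control neobladder and 200 CPM in peritoneum, in the same order. The closeness of the 2 control sums depends on their TMM factors, 0.839 and 0.449. Unscaled, the set took 14055 of 10.96 M counts in control replicate 1 and 8452 of 11.88 M in control replicate 2. In the native libraries it took 6392 of 10.68 M and 6385 of 11.03 M. Control replicate 2 thus lay nearer to native bladder than control replicate 1 on library totals.

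**Figure D1:**
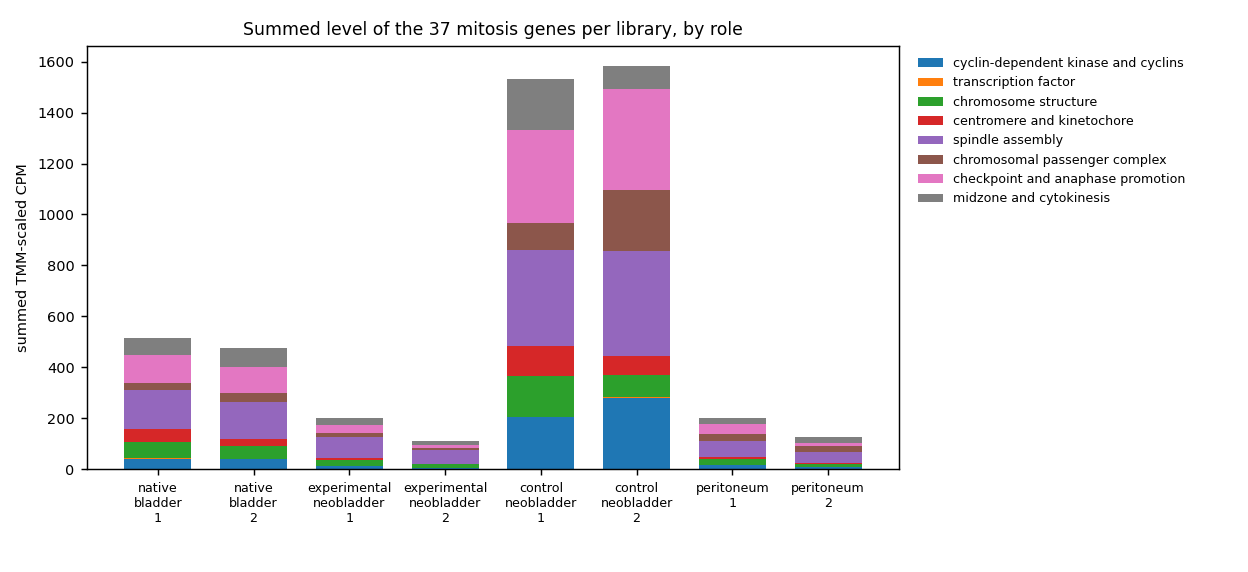
Summed TMM-scaled CPM of the 37 mitosis genes (vertical axis, CPM) in each of the 8 libraries, stacked by role. The control neobladder bars reach 1531 and 1584 CPM, the native bladder bars 516 and 477 CPM, and the experimental neobladder bars 202 and 111 CPM.

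The order held for most single genes. Group means ran control neobladder, native bladder, peritoneum, experimental neobladder in 16 of the 37 members, and control neobladder, native bladder, experimental neobladder, peritoneum in 14. Control neobladder had the highest mean in 33 members. The exceptions, where native bladder was highest, were HMMR, ANLN, PRC1 and FOXM1. Experimental neobladder had the lowest mean in 19 members and peritoneum in the other 18.

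**Figure D2:**
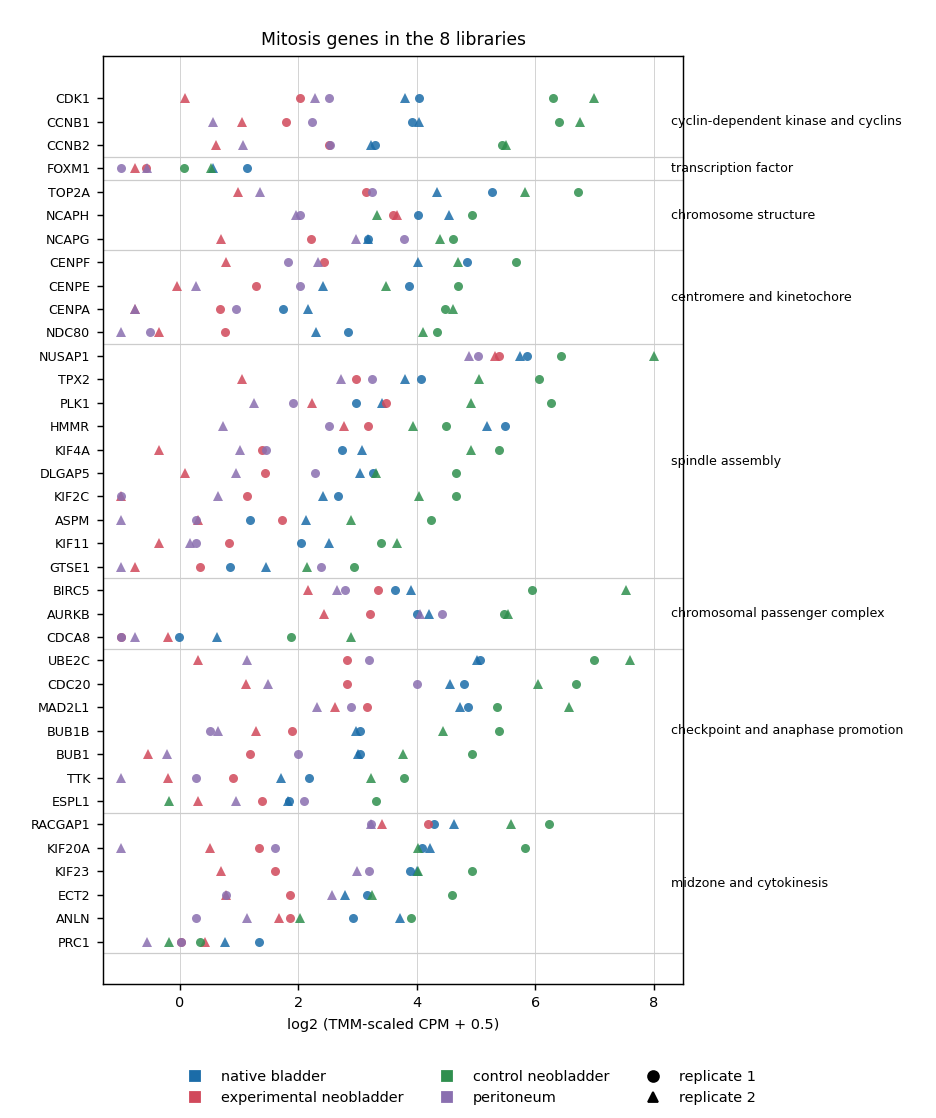
Level of each mitosis gene in each library, as log2 of TMM-scaled CPM plus 0.5 (horizontal axis), with genes grouped by role, colours for the 4 tissues, circles for replicate 1 and triangles for replicate 2. Control neobladder points lie to the right in most rows, native bladder points between, and experimental neobladder and peritoneum points to the left, with experimental replicate 2 below replicate 1 in 34 of 37 rows.

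The first comparison set experimental neobladder against native bladder, the organ it stands in for. All 37 fitted values were lower in the experimental mucosa, and their log2 fold changes had a median of -2.02, ranging from -3.53 for KIF20A to -0.24 for PLK1. Over all 16549 genes 48.1% were lower and the median was 0.02. Both experimental libraries lay below both native libraries for 35 of the 37 members, against 23.7% of all genes, and the exceptions were ASPM and PLK1. None of the 37 passed edgeR's quasi-likelihood test after Benjamini-Hochberg adjustment over all genes, where 0.0544% of all genes were called lower and 0.0423% higher. At an unadjusted p under 0.05 there were 25 members, all lower, against 4.82% of all genes lower and 8.01% in either direction. DESeq2 called 10 members lower, against 0.786% of the genes it tested. They were CCNB1, CDC20, CDK1, CENPF, HMMR, KIF23, KIF4A, MAD2L1, NDC80 and UBE2C. With all genes of at least 1 count kept, edgeR called 18 members lower (0.766% of all genes so tested), and with the 2 groups alone it called 7 (1.85%). It called 4 (CCNB1, CENPF, KIF23 and MAD2L1) without control replicate 1 (1.02%) and the same 4 without control replicate 2 (1.03%).

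The second comparison set the reservoirs against each other, and here 29 of the 37 members fell in the experimental mucosa and none rose by the same test. Of all genes, 11.3% were called lower and 10.4% higher. The fitted value was lower in 36 of 37, against 46.3% of all genes. The median log2 fold change of the members was -3.63, against 0.11 over all genes, and it was -4.90 without experimental replicate 1 and -3.00 without experimental replicate 2. Both experimental libraries lay below both control libraries for 34 members, against 26.2% of all genes, the exceptions being PRC1, ESPL1 and NCAPH. Over 15 settings, the reported one included, 15 members were called in every one, among them CDK1, CCNB1, CCNB2, CENPA, NDC80, AURKB, BIRC5, BUB1B, MAD2L1 and KIF23. Without experimental replicate 2 the call count was 17 (3.68% of all genes called lower), and without replicate 1 it was 24 (5.01%). The calls of BUB1, CDC20, CENPE, DLGAP5, TTK, ECT2, KIF20A, KIF2C, NUSAP1, PLK1, RACGAP1 and TOP2A were lost without replicate 2, and those of CDCA8, TTK, ECT2, KIF20A and NUSAP1 without replicate 1. Without control replicate 1 the calls of ECT2, KIF20A, KIF2C and TOP2A were lost, and without control replicate 2 those of CDC20, CDCA8, KIF2C, TOP2A and UBE2C. On library totals alone 21 members were called (5.02%), with a median of -2.95 where the median of all genes had moved to 0.89.

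**Figure D3:**
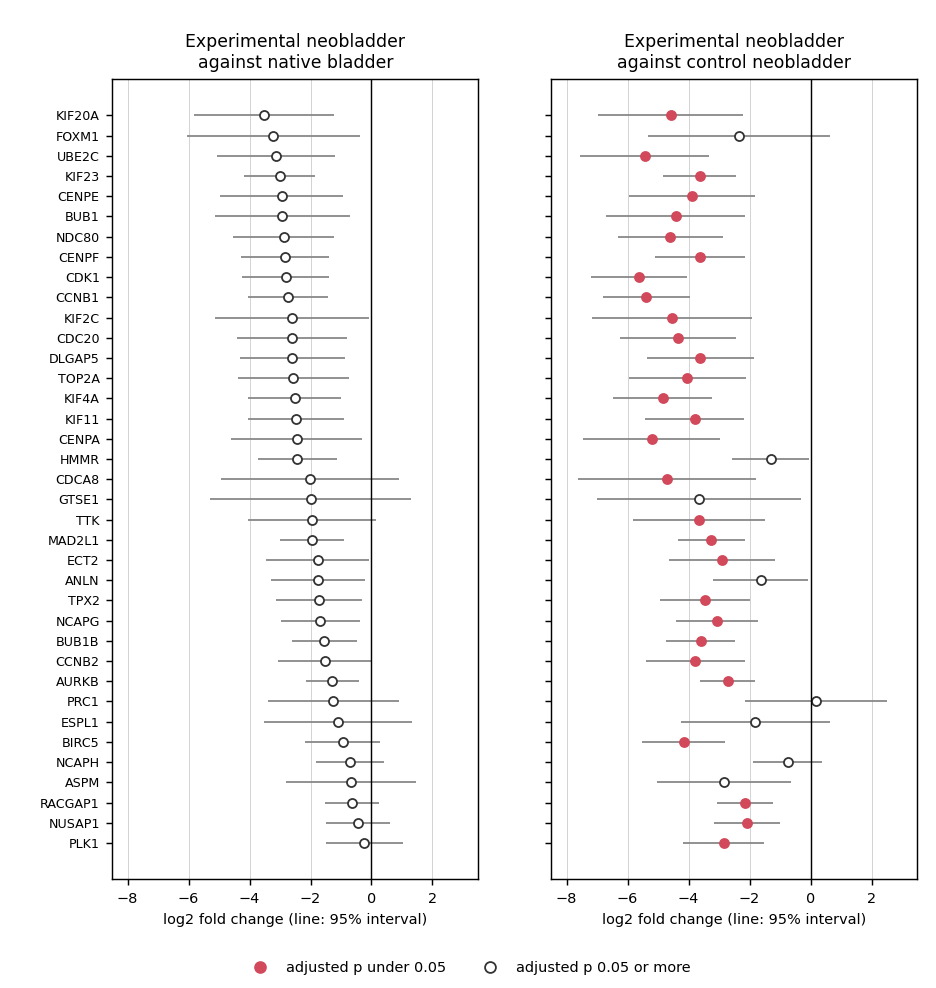
Log2 fold change of each mitosis gene (horizontal axes) with its 95% interval, for experimental neobladder against native bladder (left) and against control neobladder (right). Filled points have an adjusted p under 0.05, which 0 genes reach on the left and 29 on the right, and the order of genes is that of the left panel.

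The kinase that starts mitosis and its cyclins had 3 matched members. CDK1 (ENSSSCG00000010214, chr14:64233945-64255290 on Sscrofa11.1 in RefSeq, as for all positions here) had 16.0 and 13.4 CPM in native bladder, 3.56 and 0.556 CPM in experimental neobladder, 78.7 and 127 CPM in control neobladder, and 5.20 and 4.37 CPM in peritoneum. Every experimental library lay below every library of the other 3 groups. Its log2 fold change was -2.81 ± 0.64 (SE) against native bladder (adjusted p = 0.197) and -5.62 ± 0.71 against control neobladder (adjusted p = 0.000442). CCNB1, cyclin B1 (ENSSSCG00000029326, chr16:47338239-47348385), had 14.7 and 16.0 CPM in native bladder, 2.97 and 1.58 CPM in experimental neobladder, 83.8 and 108 CPM in control neobladder, and 4.18 and 0.980 CPM in peritoneum. The experimental and peritoneal values overlapped each other and lay below the rest. CCNB1 differed by -2.74 ± 0.59 from native bladder (adjusted p = 0.165) and by -5.39 ± 0.65 from control neobladder (adjusted p = 0.000341). It had the smallest adjusted p of the members in the latter comparison. CCNB2, cyclin B2, fell by 3.79 on the log2 scale against control neobladder (adjusted p = 0.00504) and stood at -1.52 against native bladder, with an interval from -3.05 to 0.01. Summed over the 3 genes, experimental neobladder held 19.1% of the native level and 3.08% of the control level.

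FOXM1 (ENSSSCG00000000739, chr5:67246219-67263215), the transcription factor of the set, was the scarcest by count. It had 34 counts in the native libraries together, 3 in experimental neobladder, 10 in control neobladder and 2 in peritoneum. On the CPM scale that was 1.70 and 0.971 in native bladder, 0.170 and 0.0927 in experimental neobladder, 0.544 and 0.937 in control neobladder, and 0 and 0.178 in peritoneum. The ratio of experimental to native counts, per scaled total, was 0.101 with an exact 95% counting interval of 0.0198 to 0.320. Against control neobladder it was 0.193, with an interval of 0.0341 to 0.749. Neither comparison passed the test (adjusted p = 0.513 and adjusted p = 0.218), and control neobladder against native bladder stood at -0.87, with an interval from -3.33 to 1.59.

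Of the chromosome structure genes, TOP2A, the topoisomerase that untangles copied DNA (ENSSSCG00000017473, chr12:22001300-22028452), had 38.3 and 19.8 CPM in native bladder, 8.31 and 1.48 CPM in experimental neobladder, 105 and 56.6 CPM in control neobladder, and 8.97 and 2.05 CPM in peritoneum. Replicate 1 was the higher in each group, and the experimental values lay below both bladder and control values. TOP2A fell by 4.04 ± 0.86 against control neobladder (adjusted p = 0.00842), a call that was lost without experimental replicate 2 and without either control library, and stood at -2.56 ± 0.82 against native bladder (adjusted p = 0.372). NCAPG, a condensin I subunit (ENSSSCG00000008747, chr8:12759225-12807164), had 8.56 and 8.52 CPM in native bladder, 4.15 and 1.11 CPM in experimental neobladder, 24.1 and 20.6 CPM in control neobladder, and 13.2 and 7.40 CPM in peritoneum. Experimental neobladder was the lowest group with no overlap. NCAPG fell by 3.07 against control neobladder (adjusted p = 0.00548) and by 1.96 against peritoneum (adjusted p = 0.0346). NCAPH is another condensin I subunit. Its experimental values of 11.6 and 12.1 CPM lay within the control values of 29.9 and 9.56 CPM, and above the peritoneal values of 3.57 and 3.39 CPM, against which it rose by 1.77 (adjusted p = 0.0368). Its native values were 15.8 and 22.9 CPM.

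All 4 centromere and kinetochore genes fell against control neobladder, where 11.3% of all genes were called lower. All 4 were lower than in native bladder at an unadjusted p under 0.05 (4.82% of all genes). Their summed level in experimental neobladder was 13.8% of the native level. CENPF, a large protein of the outer kinetochore (ENSSSCG00000015581, chr9:128948386-129012241), had 28.4 and 15.8 CPM in native bladder, 4.92 and 1.21 CPM in experimental neobladder, 50.4 and 25.5 CPM in control neobladder, and 3.06 and 4.54 CPM in peritoneum. Native and control values overlapped, and so did experimental and peritoneal ones. CENPF differed by -2.84 ± 0.65 from native bladder (adjusted p = 0.197) and by -3.62 ± 0.67 from control neobladder (adjusted p = 0.00391). NDC80, which binds microtubules at the kinetochore (ENSSSCG00000003697, chr6:104000794-104055785), had 6.62 and 4.41 CPM in native bladder, 1.19 and 0.278 CPM in experimental neobladder, 19.7 and 16.7 CPM in control neobladder, and 0.204 and 0 CPM in peritoneum. The 4 groups did not overlap. It differed by -2.88 ± 0.75 from native bladder (adjusted p = 0.272) and by -4.60 ± 0.78 from control neobladder (adjusted p = 0.00241). Peritoneum held 2 counts of it in all, 0.0174 times the native level with a counting interval of 0.00208 to 0.0639. The other members were CENPA, the centromeric histone, which fell by 5.21 against control neobladder (adjusted p = 0.00511), and the motor CENPE, which fell by 3.89 (adjusted p = 0.0149).

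The 10 matched spindle genes had experimental levels from 15.8% of the native level for KIF2C to 84.3% for PLK1. HMMR, a spindle pole protein and hyaluronan receptor (ENSSSCG00000017022, chr16:60290684-60332411), had 44.2 and 36.0 CPM in native bladder, 8.56 and 6.31 CPM in experimental neobladder, 21.9 and 14.8 CPM in control neobladder, and 5.20 and 1.16 CPM in peritoneum. The 4 groups did not overlap, and native bladder was the highest. HMMR differed by -2.43 ± 0.58 from native bladder (adjusted p = 0.222) and by -1.31 ± 0.57 from control neobladder (adjusted p = 0.126). KIF4A, a chromosome-borne motor that acts in the midzone (ENSSSCG00000012377, chrX:56319453-56447560), had 6.14 and 7.92 CPM in native bladder, 2.12 and 0.278 CPM in experimental neobladder, 41.2 and 29.6 CPM in control neobladder, and 2.24 and 1.51 CPM in peritoneum. Control values stood apart from all others. KIF4A differed by -2.52 ± 0.69 from native bladder (adjusted p = 0.3) and by -4.85 ± 0.73 from control neobladder (adjusted p = 0.00122).

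NUSAP1, which bundles spindle microtubules (ENSSSCG00000035544, chr1:129992797-130065641), had 57.5 and 52.9 CPM in native bladder, 41.5 and 39.5 CPM in experimental neobladder, 85.6 and 256 CPM in control neobladder, and 32.3 and 28.9 CPM in peritoneum. The experimental replicates lay close together, unlike those of most members, and the groups did not overlap. It fell by 2.07 ± 0.49 against control neobladder (adjusted p = 0.0134), a call lost on library totals, with the 2 groups alone and without either experimental library. Against native bladder its log2 fold change was -0.45 with an interval from -1.49 to 0.59. NUSAP1 made up 11.1% of the summed CPM of the set in each native library but 20.6% and 35.6% in the experimental ones. PLK1, the polo-like kinase of mitotic entry and spindle assembly (ENSSSCG00000026748, chr3:22537814-22550901), had 7.35 and 10.2 CPM in native bladder, 10.6 and 4.17 CPM in experimental neobladder, 76.7 and 29.8 CPM in control neobladder, and 3.26 and 1.87 CPM in peritoneum. Its experimental values spanned the native ones. PLK1 stood at -0.24 against native bladder, with an interval from -1.51 to 1.02, and at 0.02 without native replicate 2 and 0.28 without experimental replicate 2. It fell by 2.85 ± 0.60 against control neobladder (adjusted p = 0.00761), a call lost on library totals and without experimental replicate 2.

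Of the chromosomal passenger complex, which corrects faulty kinetochore attachments, 3 of 3 members fell against control neobladder (11.3% of all genes). AURKB, its kinase (ENSSSCG00000028924, chr12:53410833-53426165), had 15.6 and 17.9 CPM in native bladder, 8.73 and 4.91 CPM in experimental neobladder, 43.7 and 46.1 CPM in control neobladder, and 21.1 and 16.1 CPM in peritoneum. Experimental neobladder was the lowest group with no overlap, and peritoneum overlapped native bladder. AURKB differed by -1.29 ± 0.39 from native bladder (adjusted p = 0.362), by -2.71 ± 0.41 from control neobladder (adjusted p = 0.00124) and by -1.44 ± 0.40 from peritoneum (adjusted p = 0.024). BIRC5, survivin, the subunit that docks the complex on chromosomes (ENSSSCG00000040486, chr12:3747276-3755214), had 12.0 and 14.5 CPM in native bladder, 9.66 and 3.99 CPM in experimental neobladder, 60.8 and 186 CPM in control neobladder, and 6.42 and 5.79 CPM in peritoneum. Control values were the highest and differed most between replicates. BIRC5 fell by 4.17 ± 0.62 against control neobladder (adjusted p = 0.00116) and stood at -0.95 against native bladder, with an interval from -2.20 to 0.29.

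Of the 7 checkpoint and anaphase genes, 6 fell against control neobladder (11.3% of all genes), all but ESPL1. MAD2L1, the checkpoint protein that restrains CDC20 (ENSSSCG00000036256, chr8:103927358-103936669), had 28.5 and 26.1 CPM in native bladder, 8.48 and 5.66 CPM in experimental neobladder, 40.5 and 94.8 CPM in control neobladder, and 6.93 and 4.46 CPM in peritoneum. Native values lay between control values and the overlapping low groups. MAD2L1 differed by -1.95 ± 0.48 from native bladder (adjusted p = 0.237) and by -3.25 ± 0.50 from control neobladder (adjusted p = 0.00141). BUB1B, the checkpoint protein BUBR1 (ENSSSCG00000004782, chr1:131093026-131143840), had 7.75 and 7.40 CPM in native bladder, 3.22 and 1.95 CPM in experimental neobladder, 41.6 and 21.4 CPM in control neobladder, and 0.917 and 1.07 CPM in peritoneum. The 4 groups did not overlap. BUB1B differed by -1.54 ± 0.48 from native bladder (adjusted p = 0.367) and by -3.60 ± 0.51 from control neobladder (adjusted p = 0.000839).

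UBE2C, the ubiquitin-conjugating enzyme of the anaphase-promoting complex (ENSSSCG00000007423, chr17:48018403-48021542), had 33.0 and 31.9 CPM in native bladder, 6.53 and 0.742 CPM in experimental neobladder, 126 and 193 CPM in control neobladder, and 8.66 and 1.69 CPM in peritoneum. Its native replicates lay close together and its experimental ones far apart, with replicate 2 at 8 counts. UBE2C differed by -3.15 ± 0.87 from native bladder (adjusted p = 0.308) and by -5.44 ± 0.96 from control neobladder (adjusted p = 0.00306), the latter call lost without control replicate 2. Against control neobladder the log2 fold change was -4.35 for CDC20, the activator of that complex, -4.43 for the checkpoint kinase BUB1 and -3.65 for the checkpoint kinase TTK, and all of them were called. ESPL1, separase, which cuts cohesin at anaphase, had 9.47 and 0.375 CPM in the control libraries and 2.12 and 0.742 CPM in the experimental ones. The control values enclosed the experimental ones, and its log2 fold change of -1.81 became 1.93 without control replicate 1.

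Among the 6 genes of the midzone and cytokinesis, KIF23, the motor of the centralspindlin complex (ENSSSCG00000004969, chr1:167239973-167281250), had the smallest adjusted p of all 37 members against native bladder. It had 14.3 and 15.5 CPM in native bladder, 2.54 and 1.11 CPM in experimental neobladder, 29.9 and 15.7 CPM in control neobladder, and 8.66 and 7.49 CPM in peritoneum. Experimental neobladder was the lowest group with no overlap, and the groups were ordered without overlap throughout. KIF23 differed by -3.01 ± 0.53 from native bladder (adjusted p = 0.0751), by -3.63 ± 0.54 from control neobladder (adjusted p = 0.00114) and by -2.13 ± 0.52 from peritoneum (adjusted p = 0.0143). RACGAP1, its partner in centralspindlin (ENSSSCG00000000217, chr5:15894314-15943619), had 19.1 and 24.1 CPM in native bladder, 17.8 and 10.1 CPM in experimental neobladder, 74.9 and 48.0 CPM in control neobladder, and 8.86 and 8.91 CPM in peritoneum. Its experimental levels stood at 64.5% of the native mean, where those of KIF23 stood at 12.3%. RACGAP1 differed by -0.63 from native bladder, with an interval from -1.52 to 0.26, and fell by 2.14 ± 0.41 against control neobladder (adjusted p = 0.0051, lost on library totals and without experimental replicate 2). KIF20A, a midzone motor, and ECT2, which acts at the cleavage furrow, fell against control neobladder, whereas ANLN stood at -1.64 (adjusted p = 0.121). PRC1, the midzone bundling protein, was scarce, at 2.02 and 1.20 CPM in native bladder, 0.509 and 0.835 CPM in experimental neobladder and 0.762 and 0.375 CPM in control neobladder. Its experimental and control values overlapped, at a log2 fold change of 0.18 with an interval from -2.14 to 2.50.

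Control neobladder was then set against native bladder. Of the 37 members 11 rose and none fell, against 11.2% and 11.1% of all genes, with a median of 1.51 where that of all genes was -0.11. They were BIRC5 (log2 fold change 3.22), CDK1 (2.81), CENPA (2.75), CCNB1 (2.64), PLK1 (2.61), KIF4A (2.33), CCNB2 (2.26), BUB1B (2.06), NUSAP1 (1.63), RACGAP1 (1.51) and AURKB (1.42). Both control libraries lay above both native ones for 28 members, against 27.5% of all genes. The count depended on the libraries and the scaling. It was 1 without native replicate 1 (3.46% of all genes called higher) and 1 without native replicate 2 (3.96%). When TMM factors were left out it was also 1 (4.61%), with a median of 0.73 beside -0.97 over all genes.

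Peritoneum is the tissue used to replace the mucosa. Experimental neobladder against peritoneum gave 1 member higher, NCAPH, and 3 lower, KIF23, AURKB and NCAPG, where 12.4% and 11.8% of all genes were called. The median was -0.12, with 19 members lower and 18 higher, and its sign depended on single libraries. It was -1.43 without experimental replicate 1 (23 lower), 0.59 without experimental replicate 2 (12 lower), 0.81 without peritoneum replicate 1 (11 lower) and 0.04 without peritoneum replicate 2. On library totals the count of called members became 0, where 2900 of 16549 genes were called in either direction. Of the 14 alternatives, 7 lost the call of NCAPH, 6 that of AURKB, 5 that of NCAPG and 3 that of KIF23, and library totals and the absence of experimental replicate 2 or peritoneum replicate 1 ended all of them. Against native bladder 12 members fell in peritoneum and none rose (11.1% of all genes lower and 9.93% higher), with a median of -2.19. HMMR (-3.67), NDC80 and BUB1B (-2.91) had the smallest adjusted p there and were called in all 14 alternatives. Without peritoneum replicate 2 the median was -1.69, and without native replicate 1 and replicate 2 it was -2.02 and -2.20. On library totals 5 members were called, where 2472 of 16549 genes were called in either direction, 1194 of them higher. Control neobladder exceeded peritoneum in 32 members, where 21.6% of all genes were called higher, with a median of 3.52. The median was 4.41 without peritoneum replicate 1. On library totals it was 2.52 with 21 called, where 1725 of 16549 genes were called higher. These comparisons share libraries with each other and are given side by side.

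The experimental replicates differed in the set as a whole. Replicate 1 was the higher in 34 of 37 members, with a median ratio of 2.17, while over all genes replicate 1 was the higher in 50.8%. The median member stood at 3.14 CPM in replicate 1 and 1.02 CPM in replicate 2. Native replicates split 22 to 15 with a median ratio of 1.04, control replicates 25 to 12 with 1.54, and peritoneal replicates 29 to 8 with 1.49. Leaving out experimental replicate 1 moved the median against native bladder from -2.02 to -3.21, and leaving out replicate 2 moved it to -1.65. By edgeR 0 members were called in either case, where 0.00% and 0.0110% of all genes were called lower. In control neobladder the ratio of replicates moved with the genomic span of the gene. Over the 37 members its Spearman correlation with span was 0.349, and over 11643 genes with a span it was 0.324, given as descriptions over genes that share libraries. The 12 members higher in control replicate 2, among them CDK1, BIRC5, NUSAP1, UBE2C and MAD2L1, had a median span of 14.7 kb, and the other 25 a median of 47.9 kb. The part of span in the comparisons was not tested. The correlation of the members' fold changes with span was 0.327 against control neobladder and 0.142 against native bladder, and over the 11643 genes it was 0.178 and -0.119.

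**Figure D4:**
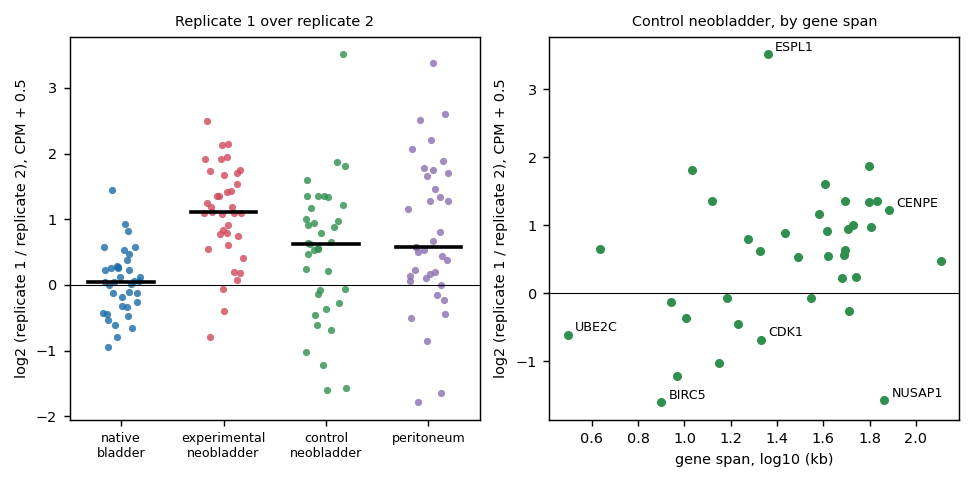
Left, log2 ratio of replicate 1 to replicate 2 (CPM plus 0.5) for each of the 37 mitosis genes in each tissue, with the median as a bar, at 1.12 in experimental neobladder and 0.05 in native bladder. Right, the same ratio in control neobladder against log10 of the gene's span in kb, where the short genes UBE2C and BIRC5 lie below 0. CDC20, also short (4.32 kb), lies above 0, and the long NUSAP1 (72.8 kb) lies below it.

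Other cell cycle genes were read from lists of the same pathway. Of 43 further mitotic genes tested, 29 fell and 1 rose against control neobladder (11.3% and 10.4% of all genes), with a median of -3.04. Against native bladder 0 passed by edgeR, and 20 had an unadjusted p under 0.05, 19 of them lower (8.01% and 4.82% of all genes). DESeq2 called 4 there, where it called 0.786% of its genes lower, and the median was -1.39. PBK, a mitotic kinase, had 12.8 and 10.2 CPM in native bladder, 1.95 and 0.464 CPM in experimental neobladder, and 48.8 and 68.4 CPM in control neobladder. PBK fell by 5.57 against control neobladder (adjusted p = 0.000312), and NUF2, the partner of NDC80, fell by 3.64 (adjusted p = 0.00151). KIF15, a spindle motor, stood at -3.62 against native bladder (adjusted p = 0.187) and at -4.89 against control neobladder (adjusted p = 0.00248). CKS2, a small CDK-binding protein, had 38.6 and 27.7 CPM in native bladder and 11.9 and 13.4 CPM in experimental neobladder, and stood at -1.39 on the log2 scale (adjusted p = 0.513). The member that rose was CDC25B, the phosphatase that activates CDK1 with cyclin B, chosen here after its values were seen. It had 72.1 and 55.8 CPM in experimental neobladder, 22.7 and 10.3 CPM in control neobladder, and 40.3 and 39.7 CPM in native bladder, and rose by 1.94 against control neobladder (adjusted p = 0.0105, and 0.066 without experimental replicate 1). HJURP, the chaperone that loads CENPA, also named after its values were seen, had 0 counts in experimental neobladder against 90 in control neobladder, and the exact 95% counting interval of that ratio reached up to 0.0269.

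All 19 DNA replication genes tested were lower against native bladder (48.1% of all genes), with a median of -1.58, and 13 had an unadjusted p under 0.05 (8.01%). Called lower was 1 of them (0.0544% of all genes). MCM3, a subunit of the replicative helicase, had 86.1 and 51.3 CPM in native bladder, 8.14 and 7.23 CPM in experimental neobladder, 75.5 and 43.8 CPM in control neobladder, and 11.1 and 8.20 CPM in peritoneum. Native and control values overlapped, and lay above all values of the low groups. MCM3 fell by 3.16 against native bladder (adjusted p = 0.034). That call was lost in 6 of 14 alternatives: on library totals and without either native library, either experimental library or peritoneum replicate 2, with an adjusted p of up to 0.308. MCM2 of the same helicase stood at -3.35 (adjusted p = 0.0723). MCM7, another of its subunits, stood at only -0.84 (adjusted p = 0.587), with 134 and 116 CPM in native bladder and 72.6 and 66.5 CPM in experimental neobladder. Against control neobladder 12 of the 19 fell (11.3% of all genes), with a median of -2.05, among them GINS1 of the helicase complex, which fell by 4.11, and thymidylate synthase (TYMS), which fell by 3.34.

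The 15 genes of G1 and S entry act before replication. Their median was -0.04 against native bladder, where 0 were called by edgeR or DESeq2 and 2 had an unadjusted p under 0.05 (8.01% of all genes). Against control neobladder it was -0.40, with 1 called higher and 3 lower (10.4% and 11.3% of all genes). CCND1, cyclin D1, had 288 and 163 CPM in native bladder, 435 and 391 CPM in experimental neobladder, 20.9 and 18.9 CPM in control neobladder, and 75.5 and 57.9 CPM in peritoneum. Experimental neobladder was the highest group and control neobladder the lowest, with no overlap. CCND1 rose by 4.37 against control neobladder (adjusted p = 0.000166), while 3 members fell, among them E2F2 by 4.07. CCND2, cyclin D2, had 223 and 179 CPM in native bladder and 167 and 206 CPM in experimental neobladder, which overlapped. E2F1, the activating E2F factor, had 1 count in experimental neobladder against 43 in native bladder and 24 in control neobladder, ratios of 0.0265 (interval 0.000657 to 0.156) and 0.0268 (0.000652 to 0.164). Of 11 MuvB, pocket protein and B-MYB genes, 0 were called against native bladder by edgeR or DESeq2, with 0 at an unadjusted p under 0.05 and a median of -0.30. LIN9 of the MuvB core and RBL2, the pocket protein p130, each stood at -0.91 against native bladder (adjusted p = 0.8 and adjusted p = 0.632). TFDP1, the E2F partner, had 67.1 and 59.3 CPM there and 54.1 and 55.8 CPM in experimental neobladder. MYBL2, B-MYB, had 2.75 and 2.54 CPM in native bladder, 4.24 and 2.60 CPM in experimental neobladder, and 12.2 and 20.0 CPM in control neobladder. It fell by 2.23 against control neobladder (adjusted p = 0.0211), TFDP2 fell by 1.72, and both calls were lost on library totals, without experimental replicate 2 and without control replicate 2. Without experimental replicate 1 MYBL2 was lost too, and with the 2 groups alone TFDP2.

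Of 14 cell cycle inhibitor genes, 0 were called against native bladder by edgeR or DESeq2, 1 had an unadjusted p under 0.05 (8.01% of all genes), and the median was 0.31. Against control neobladder 1 was called higher and 2 lower, shares near those of all genes (10.4% and 11.3%). WEE1, the kinase that inhibits CDK1, stood at -2.05 (adjusted p = 0.66) and GADD45A, a stress-induced gene, at 0.92 (adjusted p = 0.587). CDKN1A, the inhibitor p21, had 1114 and 450 CPM in native bladder, 482 and 1600 CPM in experimental neobladder, 248 and 218 CPM in control neobladder, and 48.9 and 72.5 CPM in peritoneum. Experimental replicate 2, where 34 of 37 mitosis genes were the lower, held the higher CDKN1A level. Native replicate 1, where 22 of 37 mitosis genes were the higher, also held the higher CDKN1A level. A link between CDKN1A and the mitosis genes was not tested. CDKN1A rose by 2.16 against control neobladder (adjusted p = 0.039), while CDKN2D, an inhibitor of the cyclin D kinases, fell by 2.39 and CDKN2C, of the same family, fell by 1.92. The CDKN1A call was lost in 7 of 14 alternatives, among them without experimental replicate 2, either control library or either peritoneum library. The CDKN2C call was also lost in 7, among them without either experimental library, either native library or control replicate 2, and the CDKN2D call in 0.

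**Figure D5:**
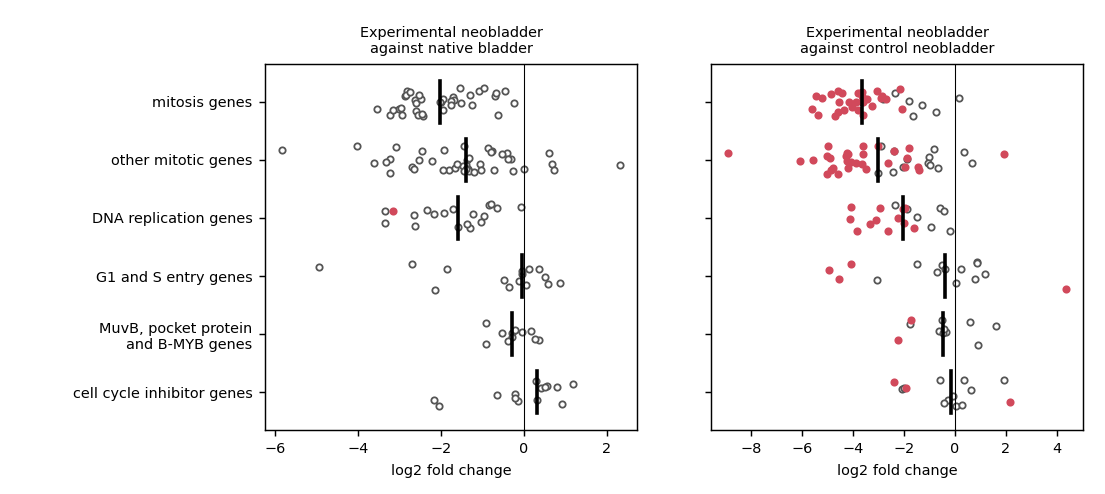
Log2 fold changes (horizontal axes) of the mitosis genes and of 5 other cell cycle lists, 1 point per gene, filled where the adjusted p is under 0.05, with the list's median as a bar. Against native bladder (left) the medians are -2.02 for mitosis genes, -1.58 for DNA replication genes, -0.04 for G1 and S entry genes and 0.31 for inhibitors, and against control neobladder (right) they are -3.63, -2.05, -0.40 and -0.16, the leftmost point there being HJURP, whose fitted value at 0 counts is no bound.

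Markers of the tissues' own cell types were read beside these results. The 4 matched pan-epithelial markers summed to 3932 and 2970 CPM in native bladder, 2806 and 3450 CPM in experimental neobladder, 8091 and 5633 CPM in control neobladder, and 999 and 2392 CPM in peritoneum. Per 1000 CPM of these markers the mitosis genes gave 131 and 161 CPM in native bladder, 71.9 and 32.2 in experimental neobladder, 189 and 281 in control neobladder, and 201 and 52.2 in peritoneum. Experimental neobladder stayed below native bladder on this scale, at 0.356 of it, while the ratio of control neobladder to native bladder was 1.61 where it had been 3.13. Peritoneum moved from 0.328 to 0.869 of native bladder, and its replicates, at 201 and 52.2, lay on either side of the native values. On this scale peritoneum was therefore not a low group like experimental neobladder. The 4 markers disagreed between control neobladder and native bladder. There 2 were higher and 2 lower, with log2 fold changes from -1.45 to 1.59 and 0 called, so their sum does not stand for all 4. The 7 urothelial markers matched of 8 summed to 9763 and 8909 CPM in native bladder, 4347 and 8362 CPM in experimental neobladder, 79.3 and 177 CPM in control neobladder, and 556 and 999.8 CPM in peritoneum. Peritoneum thus lay above control neobladder in this sum, but the 7 markers split. In control neobladder 4 were lower than in peritoneum, with 3 called, and 3 were higher, with 1 called, so the sum does not stand for all 7. Experimental replicate 1, with the higher mitosis genes, had the lower urothelial sum. Crypt markers, 10 of 10 matched, summed to 7101 and 2520 CPM in control neobladder, to 578 and 874 CPM in peritoneum, and to 43.7 to 75.0 CPM in native bladder and experimental neobladder. The sum in control neobladder was led by OLFM4, while the stem cell receptor LGR5 was at 1.09 and 0.375 CPM in control neobladder and at 118 and 290 CPM in peritoneum. Intestinal epithelial markers, 6 of 8 matched, summed to 35153 and 158889 CPM in control neobladder and to 31.8 to 48.5 CPM in the other groups. Basal epithelial markers, 4 of 6, summed to 404 and 333.5 CPM in native bladder, 339 and 331 CPM in experimental neobladder, 181 and 101 CPM in control neobladder, and 77.1 and 79.3 CPM in peritoneum. The intestinal factor CDX2 was at 0 in the native and experimental libraries and at 50.6 and 87.5 CPM in control neobladder.

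Markers of other dividing or stromal cells were read in the same way. T cell markers, 6 of 7 matched, summed to 118 and 101 CPM in native bladder, 204 and 128 CPM in experimental neobladder, 319 and 486 CPM in control neobladder, and 27.4 and 40.7 CPM in peritoneum. B cell and germinal centre markers, 8 of 8, summed to 126 and 117, 111 and 88.7, 79.3 and 127, and 47.9 and 86.0 CPM in the same order. Macrophage markers, 6 of 6, summed to 377 and 389 CPM in native bladder, 367 and 303 CPM in experimental neobladder, 821 and 2594 CPM in control neobladder, and 346 and 384 CPM in peritoneum. T cell and macrophage sums were highest in control neobladder, as were the mitosis genes. All 6 T cell markers were higher there than in native bladder. The macrophage markers split, with 3 higher and 3 lower than in native bladder and 2 called each way, so their sum does not stand for all 6. Smooth muscle markers, 5 of 5, summed to 3913 and 4196 CPM in native bladder, 4545 and 5201 CPM in experimental neobladder, 809 and 837 CPM in control neobladder, and 1226 and 1150.4 CPM in peritoneum. Endothelial markers, 4 of 5, summed to 351 and 425 CPM in native bladder, 379 and 341 CPM in experimental neobladder, 176 and 96.9 CPM in control neobladder, and 1899 and 1430.5 CPM in peritoneum. Both sums were lowest in control neobladder. Of the 5 smooth muscle markers, though, 2 were higher there than in peritoneum, with 1 called, and 3 were lower, with 0 called. Fibroblast markers, 7 of 7, summed to 13447 and 15089 CPM in native bladder, 3886 and 3893 CPM in experimental neobladder, 2571 and 1123 CPM in control neobladder, and 51197 and 69209 CPM in peritoneum. Of the mesothelial markers only 2 of 6 were matched. CALB2 was at 0 in every library, and WT1 was at 27.7 and 25.3 CPM in peritoneum and at or under 0.187 CPM elsewhere, so the peritoneal label rests on few markers. The part of these cell types in the mitosis gene differences was not tested.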

How the data were processed

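For each of the 8 libraries the authors deposited whole-number counts of reads by Ensembl gene. The tools were Trim Galore for trimming, HISAT2 for alignment to Sscrofa11.1 and HTSeq 0.11.1 for counting, per the submitters' processing notes. Settings, strand and annotation release are not given in the sources used here, so reads of overlapping genes on opposite strands cannot be told apart. Complementary DNA was made with Smart-seq2, per the labels' protocols. Members and lists were chosen with earlier results of these data known. Symbols came from a table of pig gene names that covers 15029 of the 31907 genes, and positions from RefSeq on Sscrofa11.1, matched by symbol.

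Counts were fitted in edgeR 4.0.16 (R 4.3.3): filterByExpr over the 4 groups, TMM factors (0.839 and 0.449 in control neobladder, 1.088 to 1.239 elsewhere), and 1 robust quasi-likelihood fit of all 8 libraries with 4 residual degrees of freedom (common dispersion 0.146). All 6 pairwise contrasts were tested, each adjusted by Benjamini-Hochberg over 16549 genes, with a call at an adjusted p under 0.05. Standard errors are the log2 coefficient divided by the root of F, and intervals are 95%. Ratios of replicates used CPM plus 0.5. Per role group, values in every library are given for the member with the highest mean and those with the smallest p in the comparisons with native bladder and control neobladder. For each other list, the named genes are the 2 with the smallest p in each of these comparisons and the one with the highest mean. PLK1, NCAPH, ESPL1, PRC1, CCNB2 and other further members were added after their values were seen.

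The alternatives tried were another test (DESeq2 1.42.0), scaling by DESeq2's size factors or by library totals only, no filter beyond 1 count, the 2 groups alone, replicate number as a block, and each library left out. The labels do not say if replicate numbers pair samples, and the reported fit models no pairing. The fit was tested on simulated data with known changes in the experimental group alone. The tissues did not otherwise differ there, so that test cannot show how the fit handles the low TMM factors of control neobladder.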

Additional observations from a re-analysis of the deposited data

How the results depend on the processing

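The direction of the members' median against native bladder and against control neobladder was the same in every setting run. Counts of members called changed as follows. With experimental neobladder against native bladder, 0 became 10 by DESeq2, 18 with no filter and 7 with the 2 groups alone, and ran from 0 to 4 with each library left out. Against control neobladder 29 became 17 to 31 with each library left out. Control neobladder against native bladder gave 1 on library totals, 21 with no filter and 1 to 12 with each library left out, in place of 11. Experimental neobladder against peritoneum gave 0 on library totals, 7 with no filter and 0 to 6 with each library left out, in place of 4, and its median changed sign. Control neobladder against peritoneum gave 21 on library totals and 24 to 32 with each library left out, in place of 32. Peritoneum against native bladder gave 5 on library totals, 25 with no filter, 20 with the 2 groups alone and 5 to 16 with each library left out, in place of 12. Calls over all genes, in either direction, moved as well. In the order of these comparisons they were 16, 3584, 3686, 3998, 6993 and 3486 of 16549 genes as reported. On library totals they were 5, 3621, 4090, 2900, 6930 and 2472, and with no filter 352, 4399, 4573, 4570, 7324 and 4176 of 26617. With the 2 groups alone they were 453 of 14571 in the first comparison and 5803 of 15380 in the last. DESeq2 called 200 of 15264 in the first. Where a group is left with 1 library, it is assumed to vary like the other groups. The cause of these changes was not tested, except that fewer libraries enter when one is left out.

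Gene by gene, directions were followed for experimental neobladder against native bladder and against control neobladder, where they turned for 5 members. Against native bladder, PLK1 was at 0.02 without native replicate 2 and 0.28 without experimental replicate 2, within a range of -1.06 to 0.28 over libraries left out. ASPM was at 0.0077 without native replicate 2, within -1.91 to 0.0077. Against control neobladder, NCAPH was at 0.34 without control replicate 1 (range -1.33 to 0.34) and ESPL1 at 1.93 (range -2.73 to 1.93). PRC1 was at -0.18 without experimental replicate 2 and -0.18 without control replicate 2 (range -0.18 to 0.85). None of these reversed values was past the threshold. Of the members not called against control neobladder, ANLN, ASPM, ESPL1 and NCAPH were called without control replicate 2, ASPM and GTSE1 by DESeq2, with the 2 groups alone and without either peritoneum library, and ANLN, ASPM, GTSE1 and HMMR with no filter.

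Deviations of replicate 1 from its group mean correlated between groups at -0.08 to 0.091. These values show no sign of pairing by number. They cannot exclude it, because each group has 2 libraries of a different tissue and the labels do not say. With replicate number as a replicate block the counts were 0, 29, 13, 4, 31 and 17 in the 6 comparisons, in the order given above. Over all genes, calls in either direction were then 14, 3140, 3268, 3657, 6400 and 3163 of 16549. On library totals alone the share of calls over all genes that were higher went from 48% to 77.1% for experimental against control neobladder, from 50.4% to 18.7% for control neobladder against native bladder, from 51.2% to 24.9% for control neobladder against peritoneum, and from 43.8% to 60% of few calls for experimental neobladder against native bladder. Depth limits FOXM1, CDCA8, GTSE1, PRC1 and NDC80 most, which held few counts in the low libraries.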
